A study of Mus musculus with 15 samples.

Results

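The 10 genes described here take glucose into the cell and carry it through glycolysis to lactate: Slc2a1, Hk1, Hk2, Pfkfb3, Pfkl, Aldoa, Pgk1, Eno1, Pkm2 and Ldha. They were chosen by name, and each matched 1 row among the 21110 genes of the deposited tables. All 10 reached an FPKM (reads of a gene scaled to its length and to the mapped reads of the library) of at least 1 in enough mice to be tested in every comparison. Ear RNA of 15 C57BL/6 mice was sequenced, each mouse in 1 library. The groups were 4 wild type (WT) and 4 Socs3 conditional knockout (Socs3 cKO) mice at 2 weeks of age, and 3 WT and 4 Socs3 cKO mice at 10 weeks. The conditional deletion removes the gene of SOCS3, an inhibitor of cytokine signalling, with a Cre driven by the keratin 5 promoter, so that the keratinocytes of the epidermis and hair follicle lose it and other cells of the ear keep it. The labels name keratinocytes as the source and the ear as the tissue.

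Glucose enters skin cells mainly through GLUT1, the transporter that Slc2a1 encodes, and hexokinases trap it as glucose 6-phosphate. Phosphofructokinase commits the sugar to glycolysis, and its activator fructose 2,6-bisphosphate is made by enzymes of the Pfkfb family. The lower steps split the sugar, recover ATP and end in pyruvate, which lactate dehydrogenase turns into lactate. The epidermis is known for a high rate of lactate production even where oxygen is present, and several of these genes are targets of the hypoxia-inducible factor HIF-1.

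The targeted gene and the makeup of the libraries were checked first. Socs3 measured 9.71 to 10.3 FPKM in WT and 1.25 to 12.6 FPKM in the knockout at 2 weeks, and at 10 weeks it measured 2.02 to 4.81 FPKM and 29.8 to 47.7 FPKM. The level of Socs3 in the whole ear was thus not reduced in the libraries labelled Socs3 cKO at 10 weeks, where the log2 fold change was 3.54 (SE 0.29, adjusted p = 7.2e-05), so it does not check their labels, and all directions below follow the labels. Keratinocyte markers such as Krt5 and Krt14 summed to 4750 to 11594 FPKM, but markers of skeletal muscle (581 to 3707 FPKM), cartilage (56.9 to 362 FPKM) and red blood cells (461 to 7432 FPKM) were also present, so the libraries hold more than keratinocytes. Steps of a single read in genes with 1 transcript put the depth at roughly 11.4 to 16.0 M mapped reads in a library. In 3 of the 4 groups 4044 to 4423 genes were listed at an FPKM of 0, against 2087, 3176 and 1414 in the WT mice at 10 weeks, so the group that the 10-week comparisons rest on stands apart from the others. In bulk RNA of an ear, a change in the share of a cell type and a change in RNA per cell cannot be told apart. Library numbers in the labels run in separate ranges for each group, so a batch and a group cannot be told apart either.

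The regions before the starts of 4 members are printed here as examples. Slc2a1, Hk2 and Pkm2 were up-regulated at 10 weeks under each scaling tried, which Hk1 and Pfkfb3 were not. Ldha was not up-regulated and has the most matches of the set. Each run is the 250 bases before the most upstream start that RefSeq lists (build GRCm38.p6, read 5′ to 3′ on the strand of the gene), and capitals mark the letters ACGTG, the core that HIF-1 is known to bind, or their reverse complement CACGT.
Slc2a1, chr4:119108495-119108744, plus strand: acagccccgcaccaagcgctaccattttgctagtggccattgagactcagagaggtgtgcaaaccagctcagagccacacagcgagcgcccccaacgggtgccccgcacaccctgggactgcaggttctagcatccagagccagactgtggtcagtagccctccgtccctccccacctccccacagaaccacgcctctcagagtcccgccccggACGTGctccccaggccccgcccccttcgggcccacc
Hk2, chr6:82774455-82774704, minus strand: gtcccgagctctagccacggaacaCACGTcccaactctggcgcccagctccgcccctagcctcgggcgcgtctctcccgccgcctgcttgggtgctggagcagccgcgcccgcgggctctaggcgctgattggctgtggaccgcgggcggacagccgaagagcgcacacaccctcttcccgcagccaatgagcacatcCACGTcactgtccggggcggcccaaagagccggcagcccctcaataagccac
Pkm2 (listed in RefSeq as Pkm), chr9:59656326-59656575, plus strand: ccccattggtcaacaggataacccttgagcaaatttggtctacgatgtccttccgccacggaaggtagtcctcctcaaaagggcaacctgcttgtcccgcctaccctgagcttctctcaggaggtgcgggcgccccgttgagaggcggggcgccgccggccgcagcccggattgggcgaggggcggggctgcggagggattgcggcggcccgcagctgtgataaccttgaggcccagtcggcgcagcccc
Ldha, chr7:46845554-46845803, plus strand: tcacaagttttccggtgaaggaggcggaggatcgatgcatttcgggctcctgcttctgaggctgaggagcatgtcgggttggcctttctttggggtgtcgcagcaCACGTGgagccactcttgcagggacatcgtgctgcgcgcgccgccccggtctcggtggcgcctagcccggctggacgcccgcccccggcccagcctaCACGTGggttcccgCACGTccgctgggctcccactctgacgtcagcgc

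In these printed runs the core letters occurred at 1 place before Slc2a1, at 2 before Hk2, at 3 before Ldha and at none before Pkm2. In 2 of the 3 places before Ldha they are part of CACGTG, which reads the same on both strands and holds the core once on each. Over all 10 members, 5 held at least 1 place before their most upstream start (Slc2a1, Hk2, Pfkfb3, Pgk1 and Ldha), and 16.6% of the 32851 promoters in the RefSeq table did. At least 2 places occurred in 2.0% of all promoters. Among the 5 members up-regulated at 10 weeks 3 had the letters before their most upstream start, and among the other 5 members 2 had them. Of all 18 starts listed for the members 9 had them, among these start 2 of Pkm2 and starts 2 and 3 of Aldoa, which are not printed. The 16.6% also counts every listed start. A match describes the letters of this window and is no evidence of binding.

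**Figure D1:**
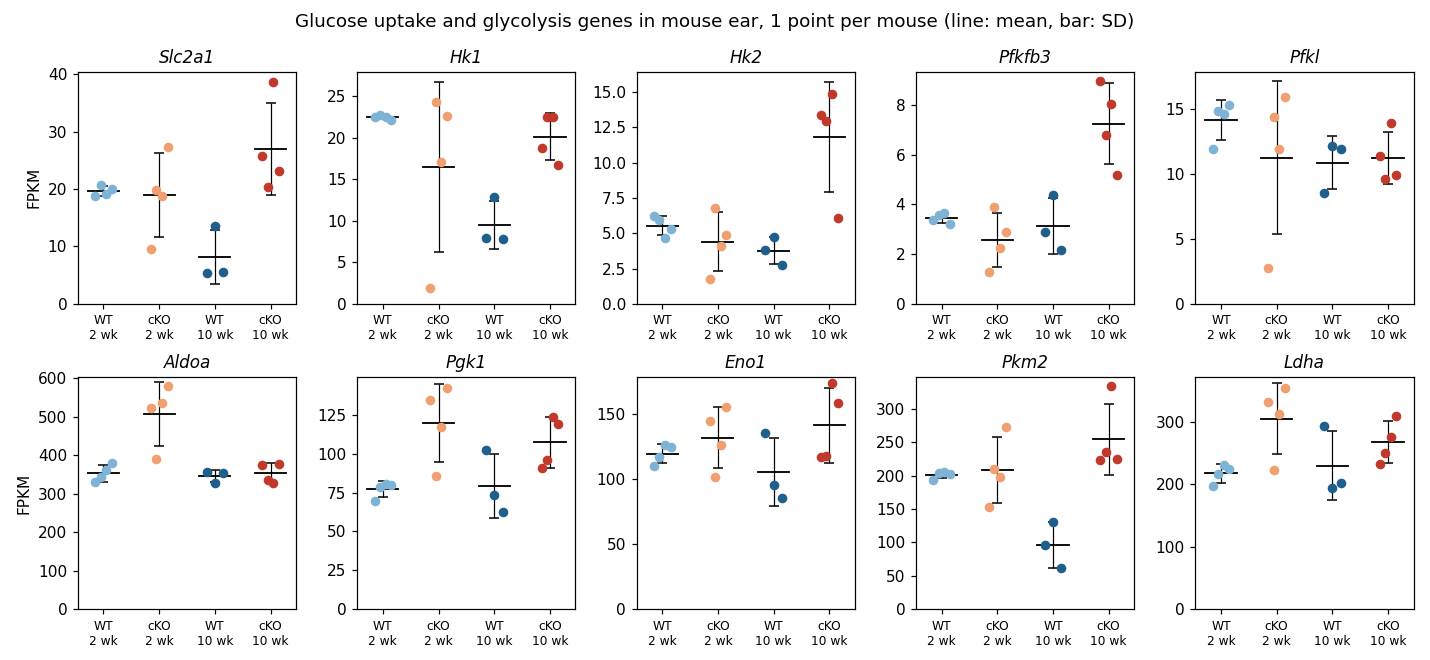
FPKM of each of the 10 members (vertical axis, from 0) in the 4 groups, with 1 point per mouse, a line at the group mean and a bar of 1 SD (n = 4, and n = 3 for WT at 10 weeks). Slc2a1, Hk1, Hk2, Pfkfb3 and Pkm2 lie higher in every Socs3 cKO mouse than in every WT mouse at 10 weeks, while Aldoa and Pgk1 do so at 2 weeks.

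The enzymes of the later steps of glycolysis were expressed far more strongly per length than the genes of glucose entry and its control. In WT mice at 2 weeks, Aldoa averaged 354 FPKM (SD 22.1, n = 4), Ldha 217 FPKM (SD 14.9), Pkm2 202 FPKM (SD 5.10), Eno1 120 FPKM (SD 7.59) and Pgk1 77.1 FPKM (SD 5.11). Hk1 at 22.4 FPKM (SD 0.24), Slc2a1 at 19.7 FPKM (SD 0.91) and Pfkl at 14.1 FPKM (SD 1.52) followed, and Hk2 at 5.54 FPKM (SD 0.69) and Pfkfb3 at 3.44 FPKM (SD 0.20) were lowest. In this order the ranges of Ldha and Pkm2 overlapped, and so did no other pair of neighbours. The 10 genes together held 0.221% to 0.241% of the summed FPKM in WT at 2 weeks, 0.150% to 0.182% in WT at 10 weeks, and 0.194% to 0.273% over the Socs3 cKO mice of both ages.

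At 10 weeks, 5 of the 10 genes were up-regulated in Socs3 cKO: the transporter Slc2a1, both hexokinases Hk1 and Hk2, the regulator Pfkfb3 and the pyruvate kinase gene Pkm2. A gene was called up- or down-regulated at an adjusted p below 0.01 (limma, Benjamini-Hochberg over all genes tested) and an absolute log2 fold change of at least 1, on the log2(FPKM + 0.1) scale. Of the 13105 genes tested, 12.5% were called higher and 2.43% lower, and no member was called lower. Of the genes called, 83.7% were higher, against 61.7% when scaled by median of ratios and 54.9% when quantile normalized, settings that put the median of all genes near 0 and left Slc2a1, Hk2 and Pkm2 called. In the same 5 members every Socs3 cKO mouse lay above every WT mouse, as in 31.2% of all genes, while 11.1% of all genes lay wholly below and no member did. The median log2 fold change was 0.78 over the members and 0.31 over all genes tested. The 5 members that were not called, Pfkl, Aldoa, Pgk1, Eno1 and Ldha, had log2 fold changes from 0.03 to 0.46, of which Pfkl (-0.23), Aldoa (-0.25) and Ldha (-0.05) turned negative with median-of-ratios scaling, and Pfkl (-0.32) and Aldoa (-0.01) when quantile normalized.

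**Figure D2:**
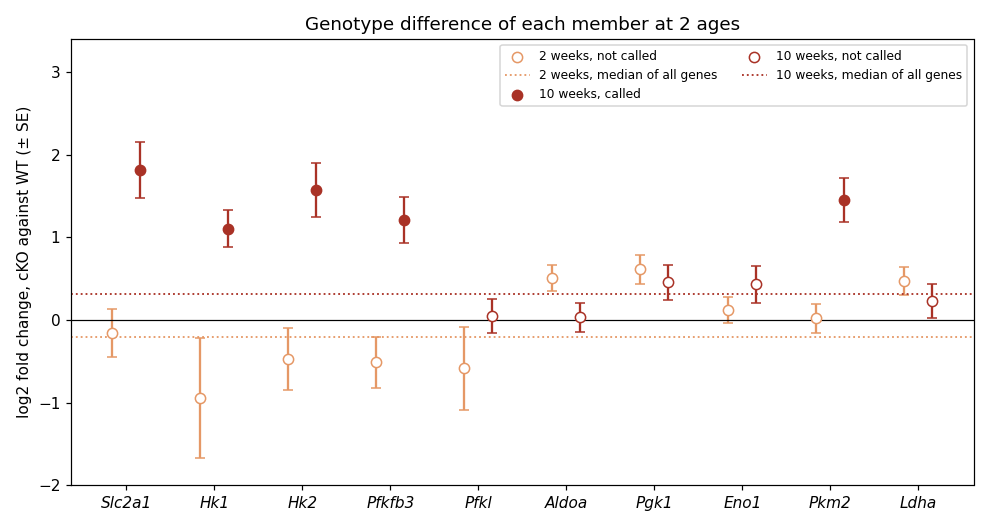
Log2 fold change of Socs3 cKO against WT (vertical axis, bars 1 SE) for each member in the order of the pathway, at 2 weeks (orange) and 10 weeks (red). Filled points passed the test, and dotted lines mark the median of all genes tested, -0.21 at 2 weeks and 0.31 at 10 weeks. No member passed at 2 weeks and 5 passed at 10 weeks.

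The members that bring in and trap glucose, Slc2a1, Hk1 and Hk2, were each called higher at 10 weeks, and Hk1 lost its call under both other scalings (log2 fold change 0.83 by median of ratios and 0.74 when quantile normalized). Slc2a1 (chr4:118781316-118809935 in mm9, 10 exons) measured 5.36, 13.6 and 5.52 FPKM in the WT mice and 25.7, 20.4, 38.6 and 23.2 FPKM in the Socs3 cKO mice. The lowest Socs3 cKO mouse was above the highest WT mouse, and the difference was 3.51-fold (log2 fold change 1.81, SE 0.34, adjusted p = 0.0039). Hk2 (chr6:82675019-82724448), the inducible hexokinase of muscle, fat and proliferating cells, measured 3.84, 4.72 and 2.76 FPKM in WT and 13.3, 12.9, 14.9 and 6.06 FPKM in Socs3 cKO. Of the Socs3 cKO mice 3 were close together and the fourth was nearer to WT, and the difference was 2.98-fold (log2 fold change 1.57, SE 0.32, adjusted p = 0.0057). Hk1 (chr10:61731603-61842656), the widely expressed hexokinase, measured 7.88, 12.8 and 7.78 FPKM in WT and 18.8, 22.5, 22.5 and 16.7 FPKM in Socs3 cKO. The groups did not overlap, and the difference was 2.15-fold (log2 fold change 1.10, SE 0.22, adjusted p = 0.0049).

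At the step of phosphofructokinase the regulator and the enzyme differed. Pfkfb3 (chr2:11393057-11423728), which makes the activator fructose 2,6-bisphosphate, measured 2.87, 4.36 and 2.18 FPKM in WT and 8.94, 6.77, 8.03 and 5.20 FPKM in Socs3 cKO at 10 weeks. All Socs3 cKO mice were above all WT mice, with a 2.31-fold difference (log2 fold change 1.21, SE 0.28, adjusted p = 0.0093), close to the threshold. Pfkl (chr10:77449692-77472828), the liver-type subunit of phosphofructokinase itself, measured 8.52, 12.1 and 11.9 FPKM in WT and 11.4, 9.55, 13.9 and 9.89 FPKM in Socs3 cKO. Its groups overlapped almost completely (log2 fold change 0.04, SE 0.21, adjusted p = 0.88).

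Among the 5 members that act in the later steps, Pkm2 alone passed the test at 10 weeks. Pkm2 (chr9:59504383-59527182) names the whole pyruvate kinase muscle gene in these tables, so the M1 and M2 splice forms are not separated. It measured 96.5, 131 and 61.0 FPKM in WT and 224, 236, 334 and 226 FPKM in Socs3 cKO. The 4 Socs3 cKO mice were all above the WT mice, by 2.74-fold (log2 fold change 1.45, SE 0.27, adjusted p = 0.0036), and 1 of them stood apart from the other 3. Aldoa (chr7:133938748-133944265), which splits fructose 1,6-bisphosphate, was at 327 to 355 FPKM in WT and 327 to 377 FPKM in Socs3 cKO (log2 fold change 0.03, SE 0.17, adjusted p = 0.89). Pgk1 (chrX:103382439-103399038), the first enzyme of glycolysis to recover ATP, was at 62.3 to 102 FPKM and 90.8 to 124 FPKM (log2 fold change 0.46, SE 0.21, adjusted p = 0.11). Eno1 (chr4:149610830-149622988), the widely expressed enolase, was at 85.6 to 135 FPKM and 117 to 174 FPKM (log2 fold change 0.43, SE 0.22, adjusted p = 0.15). Ldha (chr7:54096845-54110997), which makes lactate, was at 195 to 293 FPKM and 233 to 310 FPKM (log2 fold change 0.23, SE 0.21, adjusted p = 0.39). In each of these 4 genes the 2 groups overlapped. Relative to the median of all genes, the differences were 1.50 for Slc2a1, 1.26 for Hk2, 1.14 for Pkm2, 0.90 for Pfkfb3 and 0.79 for Hk1 on the log2 scale, and -0.28 to 0.14 for the other 5.

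The calls at 10 weeks rested on the WT mice numbered 1 and 3. Their libraries listed 2087 and 1414 genes at an FPKM of 0, against 3176 in WT mouse 2. The gap between long and short genes, described below, was -0.82 and -0.86 in them and -0.21 in WT mouse 2. Without mouse 1 no member passed the test (limma) and 7 had an unadjusted p under 0.05, and without mouse 3 none passed and 5 had one, although the log2 fold changes stayed positive for all 5 (1.58 to 2.25 for Slc2a1 and 1.16 to 1.71 for Pkm2 with any 1 mouse left out). Without both, an alternative chosen after seeing the data, the values were 0.94 for Slc2a1, 0.94 for Pkm2, 1.23 for Hk2, 0.69 for Pfkfb3 and 0.64 for Hk1. That fit leaves 1 WT mouse, so only these fold changes are given. Without Socs3 cKO mouse 1, 2 or 3 in turn, Slc2a1 and Pkm2 passed and the other 3 did not. The share of all genes called fell to 7.23% without WT mouse 1 and to 5.76% without WT mouse 3, from 14.9%.

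**Figure D3:**
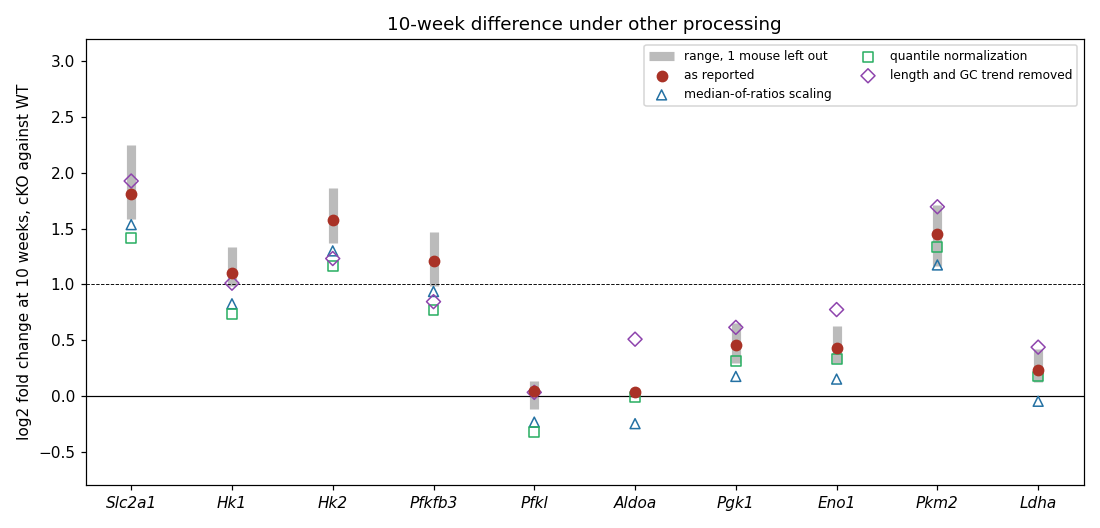
Log2 fold change of Socs3 cKO against WT at 10 weeks (vertical axis) for each member as reported (filled red), over the fits with 1 mouse left out (grey bars) and under 3 other ways to scale or adjust the values (open symbols). The dashed line marks the fold change threshold of 1 on the log2 scale, and Slc2a1, Hk2 and Pkm2 stay above it in every fit drawn.

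At 2 weeks none of the 10 genes was up- or down-regulated in Socs3 cKO (limma, adjusted p), where 7.24% of the 13524 genes tested were called higher and 7.19% lower. At an unadjusted p under 0.05 there were 3, all higher: Aldoa, Pgk1 and Ldha. Ldha had an unadjusted p of 0.022 and an adjusted p of 0.046 (limma). Values this close arise where a large share of all genes lies under such a p, so this count does not set the members apart. The median log2 fold change was -0.07 over the members, 5 of which were above 0 and 5 below, and -0.21 over all genes. In 2 members the Socs3 cKO mice lay wholly above the WT mice, against 22.9% of all genes, and in no member did they lie wholly below, against 33.2%.

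The 2 members without overlap at 2 weeks were enzymes of the later steps. Aldoa measured 329, 343, 362 and 380 FPKM in WT and 523, 389, 536 and 581 FPKM in Socs3 cKO (log2 fold change 0.51, SE 0.16, adjusted p = 0.029). Pgk1 measured 69.6, 78.5, 80.5 and 79.9 FPKM in WT and 135, 85.4, 117 and 142 FPKM in Socs3 cKO (log2 fold change 0.61, SE 0.18, adjusted p = 0.023). Socs3 cKO mouse 2 was the one nearest to WT in both. Ldha measured 196, 217, 230 and 225 FPKM in WT and 331, 223, 312 and 353 FPKM in Socs3 cKO, so that the same mouse lay within the WT range (log2 fold change 0.47, SE 0.17, adjusted p = 0.046). With quantile normalization the values of Aldoa and Ldha at 2 weeks turned to -0.13 and -0.0040, so their direction depends on the scaling, and Pgk1 went to 0.31. In the fit that takes out each library's dependence on length and GC, Aldoa was at 0.76 (limma, adjusted p = 0.0042), under the fold change threshold, while Pgk1 was at 0.20 (adjusted p = 0.31) and Ldha at 0.17 (adjusted p = 0.34).

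The genes of glucose entry and control differed more between Socs3 cKO mice at 2 weeks than between genotypes. Hk1 measured 22.4, 22.7, 22.5 and 22.1 FPKM in WT and 1.91, 24.3, 17.1 and 22.6 FPKM in Socs3 cKO. Mouse 1 was low in this gene and also in Slc2a1 (9.50 FPKM against 18.8 to 27.3 in the other 3), Hk2 (1.74 against 4.13 to 6.78), Pfkfb3 (1.27 against 2.24 to 3.88) and Pfkl (2.78 against 11.9 to 15.9). The log2 fold change of Hk1 was -0.94 (SE 0.73, adjusted p = 0.29) with this mouse and -0.09 without it, and that of Pfkl was -0.58 (SE 0.50, adjusted p = 0.34) with it and -0.01 without it. The same mouse was within the range of the other Socs3 cKO mice in Aldoa, Pgk1, Eno1 and Ldha, and was the lowest of the 4 in Pkm2 at 154 FPKM against 198 to 273. Eno1 and Pkm2 themselves were at log2 fold changes of 0.12 (SE 0.16) and 0.02 (SE 0.18) at 2 weeks.

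The test of the difference between the ages, the genotype by age interaction, passed for 4 members, all with a larger Socs3 cKO to WT difference at 10 weeks. Among the 13937 genes tested together, 18.5% passed in this direction and 7.05% in the other at an adjusted p below 0.01. The interaction on the log2 scale was 2.04 for Hk2 (SE 0.53, adjusted p = 0.0076), 1.97 for Slc2a1 (SE 0.48, adjusted p = 0.0057), 1.72 for Pfkfb3 (SE 0.44, adjusted p = 0.0068) and 1.43 for Pkm2 (SE 0.33, adjusted p = 0.0042). The median over all genes was 0.55. Of the genes that passed, 72.4% were higher, against 52.0% with median-of-ratios scaling, where Pkm2 (0.96) did not pass, and 45.4% with quantile normalization, where Hk2 and Pfkfb3 did not. Hk1 had an interaction as large as Hk2, at 2.04, with a wider error (SE 0.85, adjusted p = 0.060), and it passed once Socs3 cKO mouse 1 of 2 weeks was left out. In that fit 34.7% of all genes passed, against 25.6% with all mice. Without WT mouse 1 or 3 of 10 weeks no member passed this test (limma), and 4 had an unadjusted p under 0.05. The share of all genes that passed was then 14.4% and 14.6%. Pkm2 alone passed without any 1 of the WT mice of 2 weeks or without Socs3 cKO mouse 1 or 3 of 10 weeks, and Slc2a1 and Pkm2 passed without Socs3 cKO mouse 3 of 2 weeks or mouse 2 of 10 weeks.

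Within WT mice, Slc2a1 and Pkm2 were lower at 10 than at 2 weeks. In WT, 6.18% of genes were called higher and 19.4% lower with age, and 17.3% lay wholly above and 49.5% wholly below. Slc2a1 went from 18.8 to 20.8 FPKM at 2 weeks to 5.36 to 13.6 FPKM at 10 weeks (log2 fold change -1.40, SE 0.36, adjusted p = 0.0054). Pkm2 went from 194 to 205 FPKM to 61.0 to 131 FPKM (log2 fold change -1.14, SE 0.24, adjusted p = 0.0019), and Hk1, whose groups also did not overlap, did not pass (-1.27, SE 0.62, adjusted p = 0.099). The median of all genes in this comparison was -0.44, and with median-of-ratios scaling neither Slc2a1 nor Pkm2 passed (limma), with 2 members at an unadjusted p under 0.05. Of the genes called, 24.2% were higher with age, against 47.1% with that scaling and 48.8% with quantile normalization. Neither member passed without WT mouse 3 of 10 weeks, Pkm2 alone passed without WT mouse 1 of 10 weeks or any WT mouse of 2 weeks, and Hk1 passed beside them without Socs3 cKO mouse 1 of 2 weeks, which enters the shared spread. The share of all genes called was 25.5% with all mice, 15.9% without WT mouse 3 of 10 weeks and 32.5% without Socs3 cKO mouse 1 of 2 weeks.

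Within Socs3 cKO mice, Pfkfb3 was higher at 10 than at 2 weeks, at 5.20 to 8.94 FPKM against 1.27 to 3.88 FPKM (log2 fold change 1.54, SE 0.30, adjusted p = 0.0047). It was the only member called, where 2.01% of all genes were called higher and 1.53% lower, and it lay wholly above, as did 7.71% of genes. Hk2 was at a log2 fold change of 1.48 (SE 0.36, adjusted p = 0.019). Aldoa was the only member wholly below at 10 weeks, as were 6.79% of genes, at 327 to 377 FPKM against 389 to 581 FPKM (log2 fold change -0.51, SE 0.14, adjusted p = 0.036). Pfkfb3 did not pass without Socs3 cKO mouse 3 of 2 weeks or mouse 1, 2 or 3 of 10 weeks, and Hk2 passed beside it without mouse 2 of 2 weeks or mouse 4 of 10 weeks. The age comparisons share their groups with the genotype comparisons and are not independent of them.

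Transcript length moved with the groups and with the values of the shortest and longest members, but not with those of the members between them. Across all genes, the median log2 fold change at 10 weeks was -0.17 for genes with a longest transcript under 2000 bases, 0.35 for 2000 to 3999 bases and 0.67 for 4000 bases or more, and at 2 weeks it was 0.25, -0.35 and -0.46. The members under 2000 bases were Aldoa (1549 bases), Ldha (1766) and Pgk1 (1825), and those over 4000 bases were Hk1 (4278), Pfkfb3 (5072) and Hk2 (5513). Between them lay Eno1 (2027), Pkm2 (2221), Slc2a1 (2607) and Pfkl (3730). Their log2 fold changes at 10 weeks were 0.43, 1.45, 1.81 and 0.04 in this order. The gap between long and short genes in a library, as the median deviation of genes of at least 4000 bases less that of genes under 2000, was 0.35 to 0.58 on the log2 scale in WT at 2 weeks and -0.86 to -0.21 in WT at 10 weeks. In WT at 10 weeks the gap was lowest in mice 3 and 1 (-0.86 and -0.82), the mice on which the 10-week calls rested. It was -0.79 to 0.42 in Socs3 cKO at 2 weeks, lowest in mouse 1, and -0.33 to 0.35 in Socs3 cKO at 10 weeks, lowest in mouse 4, the mouse with the lowest Hk2, Hk1 and Pfkfb3 of its group. After the trend of each library with length and GC content was removed, Slc2a1 (log2 fold change 1.93), Pkm2 (1.70), Hk2 (1.23) and Hk1 (1.01) still passed at 10 weeks, Pfkfb3 (0.85) did not, and Hk1 at 2 weeks moved to 0.02. Aldoa, Eno1 and Pgk1 had log2 fold changes of 0.51, 0.78 and 0.62 at 10 weeks in that fit (limma, adjusted p = 0.012, 0.025 and 0.026). Ldha was at 0.44 (limma, adjusted p = 0.057). In that fit 9 members had an unadjusted p under 0.05 at 10 weeks (limma), against 5 without the adjustment. The size of the difference in these later enzymes thus depends on the length and GC trend.

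**Figure D4:**
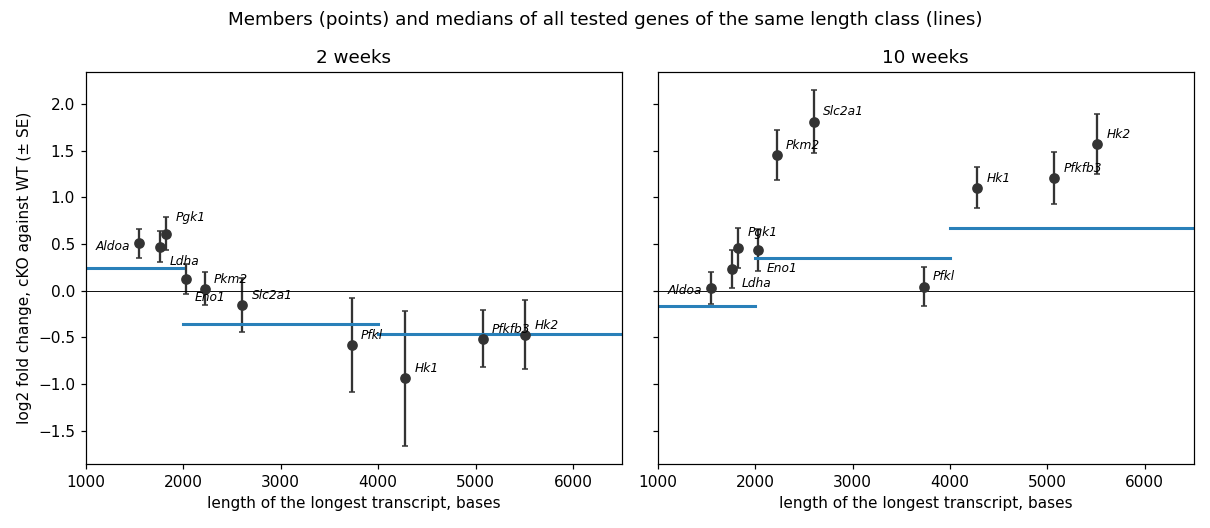
Log2 fold change of Socs3 cKO against WT (vertical axis, bars 1 SE) of the 10 members against the length of their longest transcript in bases (horizontal axis), at 2 weeks (left) and 10 weeks (right). Blue lines are the medians of all tested genes under 2000, from 2000 to 3999 and of 4000 bases or more, which fall from 0.25 to -0.46 at 2 weeks and rise from -0.17 to 0.67 at 10 weeks.

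Markers of other cells moved with the groups too. At 2 weeks 8 of 12 skeletal muscle markers were up-regulated in Socs3 cKO (median log2 fold change 1.80), with sums of 771 to 1165 FPKM in WT and 1998 to 3707 FPKM in Socs3 cKO. At 10 weeks 3 of the 12 were down-regulated (median -0.95), with sums of 1414 to 2443 FPKM in WT and 581 to 1063 FPKM in Socs3 cKO. Muscle fibres express Aldoa, Ldha, Pkm2 and Hk2 strongly. Markers of red blood cells, which live by glycolysis, were called higher in 4 of 5 and lower in 1 at 2 weeks (461 to 535 FPKM in WT, 2704 to 7432 FPKM in Socs3 cKO) and lower in 3 of 4 tested at 10 weeks (4683 to 6915 FPKM, then 673 to 2110 FPKM). Myeloid cell markers were called higher in 5 of 8 at 10 weeks (267 to 447 FPKM in WT, 628 to 1081 FPKM in Socs3 cKO). At 2 weeks none of 7 tested was called (limma), and 5 had an unadjusted p under 0.05, 4 of them higher. Endothelial markers were called higher in 1 of 6 at 2 weeks and in 3 of 6 at 10 weeks (21.6 to 24.5 FPKM, then 39.8 to 59.8 FPKM). Adipocyte markers were called higher in 1 of 6 at 2 weeks and 2 of 6 at 10 weeks, keratinocyte markers in 1 of 6 at each age, and all 5 hair shaft markers in the tables were called lower at 2 weeks. Cartilage markers were called lower in 2 of 5 tested at 2 weeks, and 1 was called higher and 1 lower at 10 weeks. Of 6 proliferation markers 1 was called lower at 2 weeks and none was called at 10 weeks (limma). There 4 had an unadjusted p under 0.05, 2 of them higher. No marker of muscle, keratinocytes, myeloid cells or endothelium was at 0 in any library. The part of these cells in the members' values was not tested.

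The ratio of each member to another isoform of the same step, taken within a mouse, does not depend on the scaling between libraries. The smallest adjusted p over 12 ratio tests was 0.17 (exact permutation test, 2-sided), and with these group sizes no adjusted p could fall below 0.05. In the 3 that gave the smallest p of their design the groups did not overlap. At 2 weeks Eno1 was 2.58 to 3.84 times Eno3, the muscle enolase, in WT and 1.05 to 1.74 times in Socs3 cKO (log2 difference -1.26, exact permutation p = 0.0286). Ldha was 5.63 to 5.92 times Ldhb, the heart form, in WT and 3.04 to 4.46 times in Socs3 cKO (log2 difference -0.66, exact permutation p = 0.0286). At 10 weeks the ratio of Pfkfb3 to Pfkfb2, another enzyme of the same activator, was 0.32 to 0.37 in WT and 0.45 to 0.96 in Socs3 cKO (log2 difference 0.91, exact permutation p = 0.0571). These are the smallest p values that 4 mice against 4 and 3 mice against 4 allow. Eno1 to Eno3 was 1.38 to 3.14 in WT and 3.10 to 8.75 in Socs3 cKO at 10 weeks (log2 difference 1.50, exact permutation p = 0.114). The differences at 10 weeks were 0.87 for Slc2a1 to Slc2a3, the high-affinity transporter GLUT3, 0.47 for Hk2 to Hk1, -0.54 for Pfkl to Pfkp, the platelet-type subunit, and 0.29 for Ldha to Ldhb, each with overlap. At 2 weeks they were 0.18, 0.47 and -0.48 for these first 3 pairs and -0.44 for Pfkfb3 to Pfkfb2, also with overlap.

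**Figure D5:**
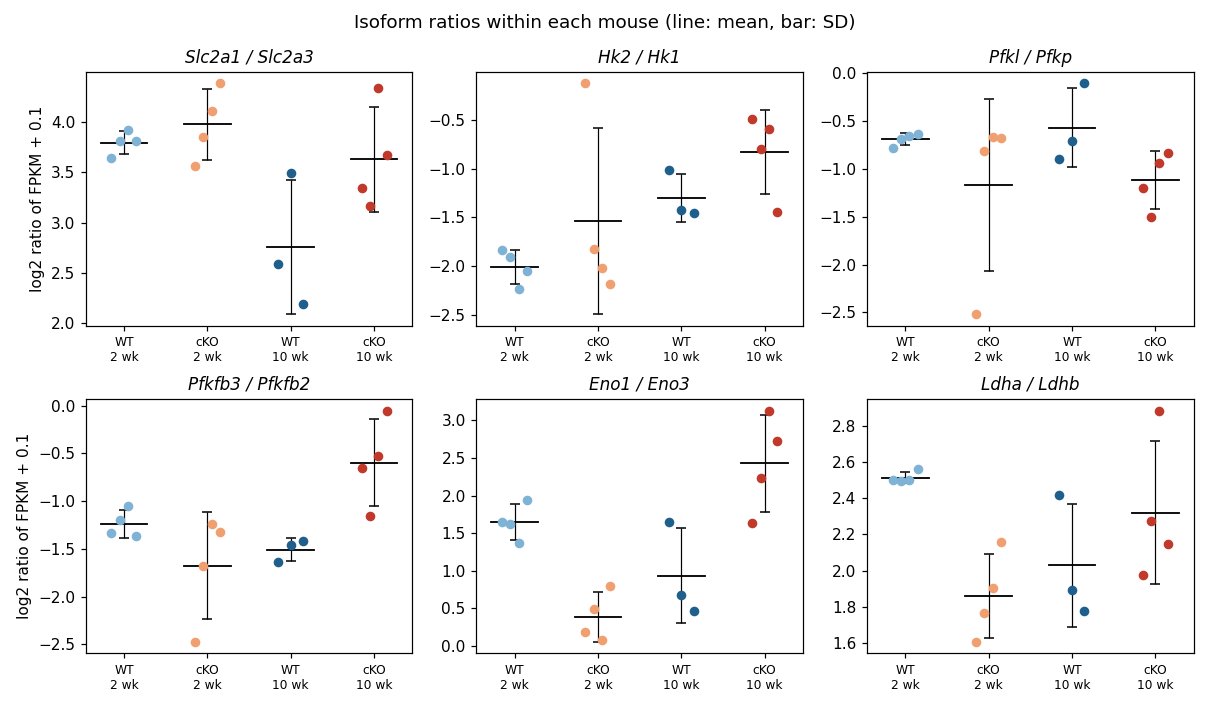
Log2 ratio of 2 isoforms within each mouse, from FPKM + 0.1 (vertical axis), for 6 fixed pairs in the 4 groups, with 1 point per mouse, a line at the mean and a bar of 1 SD. The Socs3 cKO mice lie below WT at 2 weeks in Eno1 to Eno3 and Ldha to Ldhb, and above WT at 10 weeks in Pfkfb3 to Pfkfb2.

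Other genes of the pathway were counted in lists by role. Of 7 other glucose transporters tested at 2 weeks, Slc2a12 was up-regulated (log2 fold change 1.34, SE 0.17, adjusted p = 0.00087) and Slc2a10 down-regulated (-1.44), and at 10 weeks none of 8 passed (limma), with 3 at an unadjusted p under 0.05, all higher. Of 12 other glycolytic enzymes tested at each age, Eno3 (1.39) and Ldhb (1.13) were up-regulated and the hexokinase gene Hk3 (-1.14) down-regulated at 2 weeks, and at 10 weeks the muscle phosphoglycerate mutase gene Pgam2 (-1.30) and Eno3 (-1.07) were down-regulated. Eno3 and Pgam2 are known as muscle genes, and Pgam2 was at 0.50 at 2 weeks (adjusted p = 0.11), with overlap of the groups. The list medians were 0.38 at 2 weeks and 0.33 at 10 weeks.

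Of the genes that act on fructose 2,6-bisphosphate or reverse the step, the gluconeogenic Fbp1 was lower in Socs3 cKO at 2 weeks (log2 fold change -4.69, SE 0.29, adjusted p = 4.2e-05). Its means were 14.5 FPKM in WT and 0.49 FPKM in Socs3 cKO at 2 weeks, and 0.59 and 0.52 FPKM at 10 weeks. It was thus high only in WT at 2 weeks, as were the hair shaft markers. At 10 weeks none of 4 tested passed (limma), and 2 had an unadjusted p under 0.05, 1 of them higher. For lactate export and the entry of pyruvate into mitochondria, 3 of 14 genes were up-regulated at 2 weeks: the mitochondrial pyruvate carrier genes Brp44l (Mpc1, 1.53) and Brp44 (Mpc2, 1.03), and the pyruvate dehydrogenase phosphatase gene Pdp1 (1.11). At 10 weeks 1 of the 14 was, Pdk4, which inhibits pyruvate dehydrogenase (1.98, SE 0.23, adjusted p = 0.00041). In the pentose phosphate pathway none of 7 passed at 2 weeks (limma), with 4 at an unadjusted p under 0.05, 3 of them higher. G6pdx, its first enzyme, was up-regulated at 10 weeks (1.16, SE 0.23, adjusted p = 0.0046).

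Among 14 genes of the hypoxia pathway, Hif1a, the regulated subunit of HIF-1, was the only one up-regulated at 10 weeks (1.09, SE 0.18, adjusted p = 0.0024). Its means were 16.6 FPKM in WT and 35.1 FPKM in Socs3 cKO. At an unadjusted p under 0.05 (limma) there were 8 of the 14 at 10 weeks, 7 of them higher, and 6 at 2 weeks, 2 of them higher. A large share of all genes lay near or under this p: Pgk1 at 10 weeks had an unadjusted p of 0.056 and an adjusted p of 0.11 (limma). These counts are therefore no result about the list. At 2 weeks the angiogenic factor gene Vegfa was down-regulated (-1.85) and the mitophagy gene Bnip3 up-regulated (1.51). The median of the list was 0.51 at 10 weeks and -0.21 at 2 weeks, beside 0.31 and -0.21 over all genes.

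Over the 15 libraries the members fell along a few lines of likeness, measured by Pearson's r of log2(FPKM + 0.1) and given as a description, since the mice share groups and the length trend. Pgk1 and Ldha were most alike among the members (r = 0.96), followed by Slc2a1 and Pkm2 (r = 0.95) and by Hk2 and Pfkfb3 (r = 0.95), while Pfkfb3 and Aldoa went most in opposite directions (r = -0.57). With the group means removed, these values were 0.94, 0.86, 0.91 and -0.47, and other pairs then came first: Eno1 and Pgk1 (r = 0.97) and Hk1 and Pfkl (r = 0.95) were most alike, and Hk2 and Aldoa most opposite (r = -0.51). Of the 13937 genes tested together, those most like a member were Gm5414 (r = 0.97) and Pde8a for Slc2a1, Rabgef1 and Ripk4 (both r = 0.98) for Hk2, and Ctgf (r = 0.98) and Cry2 for Pfkfb3. They were Eefsec (r = 0.95) and Tom1l2 for Pfkl, Ndufaf1 (r = 0.93) and Zc3hc1 for Aldoa, Gm5506 (r = 0.99) and Rrm1 for Eno1, Fabp5 (r = 0.95) besides Ldha for Pgk1, Gm5414 (r = 0.96) and Osbpl11 for Pkm2, and Cstb (r = 0.94) besides Pgk1 for Ldha.

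Some members share sequence with other places in the genome, so their reads could be assigned there. Of all stretches of 50 bases, the read length, in the longest transcript, 92.9% of Pgk1, 72.2% of Eno1, 41.4% of Pkm2, 29.1% of Ldha and 14.8% of Aldoa also occur elsewhere in mm9, against at most 1.2% of the other 5 members. The levels of Pgk1 and Eno1 are therefore uncertain, as are those of the listed genes Brp44l (73.5%) and Bnip3 (61.7%). Whether the r of 0.99 between Eno1 and Gm5506 came from reads of shared sequence was not tested.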

How the data were processed

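RNA of mouse ears was sequenced by the authors as single reads of 50 bases. The deposited tables give FPKM for 21110 genes, 1 table per mouse. Per the labels, reads were aligned to mm9 with TopHat2 (version 2.1.0), and Cufflinks is named without a version. The authors used edgeR for their test, which was not run here, as the tables hold FPKM, and mice of the study beyond these 15 were not analysed here. The labels gave the groups and replicate numbers. Here log2(FPKM + 0.1) was compared with limma (version 3.58.1, R 4.3.3), letting the prior variance follow the mean level. A gene was tested if 3 or more of the mice compared had an FPKM of 1 or more. All tests were 2-sided, and p-values were adjusted by Benjamini-Hochberg over the whole set of genes tested. The share of all genes at an unadjusted p under 0.05 was not counted, so counts at this p are given without a background. Genotypes were compared within each age, and the interaction and the ages in 1 fit of all 4 groups. Fold changes are on the log2(FPKM + 0.1) scale and understate the change of low genes. Nothing says that the mice came from separate litters. No 2 libraries shared more than 1 identical value above 0. The fit was tested on simulated data. Transcript lengths, exons and coordinates come from GENCODE M1 on mm9, with 19443 genes (92.1%) matched by name, and promoters from RefSeq, with all 10 members matched.

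The 10 genes, the lists and the tests were chosen with earlier results of these data known. The genes named are the 10 members, up to 3 called genes per list and comparison by the largest absolute fold change, the partners in the 6 isoform ratios and the 2 genes most like each member, which for Hk1 are not reported here. Other pseudocounts, filters, scalings, fits, a length and GC correction and leaving out each mouse were tried.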

Additional observations from a re-analysis of the deposited data

Results flagged for a closer look

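Pkm2 in Socs3 cKO at 10 weeks had 1 mouse far above the other 3, at 334 FPKM against 224 to 236 FPKM. Of the 30 sets of 4 mice examined in this way it was the only one marked, and about 1 in 20 would be by chance. The check used FPKM and not the log2 scale of the tests. On FPKM, Hk1 in Socs3 cKO mouse 1 at 2 weeks (1.91 FPKM against 17.1 to 24.3 FPKM) was not marked. Without the 10-week Socs3 cKO mouse at 334 FPKM, the log2 fold change of Pkm2 at 10 weeks was 1.32 (limma, adjusted p = 0.0091).

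The difference between Socs3 cKO and WT changed with age in 4 members by the interaction test: 1.97 on the log2 scale for Slc2a1, 2.04 for Hk2, 1.72 for Pfkfb3 and 1.43 for Pkm2. In each the 10-week difference was the larger one, and the WT mice at 10 weeks, whose libraries stand apart by their genes at 0 and their length gap, enter all 4 values.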

How the results depend on the processing

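At 10 weeks, 3 members (Slc2a1, Hk2 and Pkm2) were called with median-of-ratios scaling, with quantile normalization or with all 4 groups in 1 fit, 4 without a filter, with a constant prior variance or with the length and GC trend removed (Pfkfb3 lost in each), and 0 to 5 with 1 mouse left out. Without WT mice 1 and 3 together, chosen after seeing the data, 0 were called at 10 weeks, in the interaction and in WT with age (limma), with 4, 3 and 1 at an unadjusted p under 0.05, as 1 WT mouse was left and assumed to vary like the others. In the interaction, 2 members were called with quantile normalization or with the length and GC trend removed, and 0 to 5 with 1 mouse left out. For WT with age, 0 were called with median-of-ratios scaling, 1 with quantile normalization and 0 to 3 with 1 mouse left out. For Socs3 cKO with age, 2 were called with median-of-ratios scaling, quantile normalization or the length and GC trend removed, and 0 to 2 with 1 mouse left out. With 1 mouse left out, the share of all genes called ran from 5.76% to 20.7% at 10 weeks and from 14.4% to 36.8% in the interaction. It ran from 15.9% to 32.5% for WT with age and from 2.16% to 5.03% for Socs3 cKO with age. The counts of members moved within these shifts of all genes. At 2 weeks 0 members were called in all 18 alternatives (limma). No called value changed sign under any alternative. The cause of these shifts was not tested.

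Replicate numbers were not treated as pairs in the main fits. Deviations of same-numbered mice correlated with r from -0.06 to 0.06 at 2 weeks and -0.20 to 0.04 at 10 weeks. For mice of different number r was -0.14 to 0.09 and -0.21 to 0.16. With so few mice this cannot tell whether same-numbered mice shared a litter or a day of processing. With the replicate block 5 members were called at 10 weeks, 0 at 2 weeks, 4 in the interaction, 2 for WT with age and 0 for Socs3 cKO with age (limma), with 3 at an unadjusted p under 0.05.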
